A study of Homo sapiens with 9 samples.

Results

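The collagen- and RGD-binding integrins of 22Rv1 cells were followed through 10 chain genes, ITGA1, ITGA2, ITGA4, ITGA5, ITGAV, ITGB1, ITGB3, ITGB5, ITGB6 and ITGB8, among 22465 genes that had a transcript row with that symbol alone. Each gene stood for the row with its symbol alone that had the highest mean over all arrays. For ITGA1 the brightest row also carried the symbol PELO, so the row naming ITGA1 alone was used and the shared row is described beside it. The list was drawn up by what the chains bind, but with earlier results of these data known. No filter on level was applied, so all 10 were tested.

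22Rv1 is a human prostate cancer cell line that expresses SSX2, a cancer-testis antigen. RNA was hybridized to the Affymetrix Human Transcriptome Array 2.0, with 3 groups of 3 arrays each: cells transfected with an shRNA against SSX2 (KD), cells given a scrambled shRNA (SCR), and wildtype cells that were not transfected (WT). KD and SCR cells were kept under neomycin selection and WT cells are not described as selected, so SCR is the control that shares the transfection and the selection. The arrays of a group are labelled technical replicates, so every p-value below measures the spread between arrays and not between cultures, and no source used here gives whether a transfected line was 1 clone. The knockdown question was put to the arrays as KD against SCR and as KD against WT, which share the KD arrays, with SCR against WT as the difference between the controls.

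Integrins are receptors made of 1 alpha and 1 beta chain that span the membrane, hold the extracellular matrix outside and connect through the beta tail to talin, kindlin and actin inside the cell. The chains pair selectively. ITGB1 joins ITGA1 or ITGA2 to make collagen receptors, as it does with ITGA10 and ITGA11, joins ITGA5 to make the main fibronectin receptor, which reads the RGD motif, and joins ITGA4 to make a receptor for VCAM1 and for a non-RGD site of fibronectin. ITGAV pairs with ITGB1, ITGB3, ITGB5, ITGB6 or ITGB8 to make RGD receptors for vitronectin, fibronectin, osteopontin and latent TGF-beta. In prostate epithelium these receptors tie cells to the matrix, and integrins are studied there for their part in migration and spread.

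The labels were checked first with SSX2, which on this array shares its rows with its copy SSX2B. The brighter shared row read 5.19, 5.06 and 5.14 on the KD arrays, 11.94 on each SCR array and 11.89, 11.89 and 11.98 on the WT arrays (log2 intensity, as are all levels below), a fall of 6.81 from SCR to KD (SE 0.05). The cell type was checked with marker genes, in lists chosen with earlier results of these data known. The check is therefore not independent of those results. Of 7 prostate luminal markers measured, 4 were lower in KD than in SCR and 0 higher (0 at an unadjusted limma p under 0.05 and 0 by the unmoderated test after adjustment), namely KLK2 by −3.91, HOXB13 by −2.33, TMPRSS2 by −2.23 and KLK3 by −1.58 on the log2 scale. EPCAM, KRT8 and KRT18 did not pass, and the mean level of the 7 ran from 7.86 to 7.96 on the KD arrays, 9.30 to 9.32 on the SCR arrays and 9.11 to 9.18 on the WT arrays. Of 8 mesenchymal and basal markers of other prostate lines, 5 were higher in KD (ANXA2 by 6.35, ANXA1 by 6.01, AXL by 4.75, VIM by 3.96 and CAV1 by 3.83), while the basal keratins KRT5 (−0.06) and KRT14 (0.01) and CD44 (0.51) did not pass, and the mean level of the 8 was 8.98 to 8.99 on the KD arrays against 5.80 to 5.82 on the SCR arrays and 5.80 to 5.89 on the WT arrays. Fibroblast markers (6 measured) had 0 higher and 1 lower, LUM by −1.14, whose call was lost without any 1 KD or SCR array (limma, adjusted p = 0.065 to 0.16). Endothelial markers (5) and leukocyte markers (4) had 0 calls in either direction. The unmoderated test also called 0 of these 9 genes after adjustment, and at an unadjusted limma p under 0.05 there were 1 higher and 0 lower in each of both sets. These marker shifts move with the same KD arrays as every integrin difference below, and their part in those differences was not tested. In bulk RNA, fewer cells of a type and less RNA per cell cannot be told apart.

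The start regions of ITGB1, ITGA5, ITGA2 and ITGA1 are shown because these were the chains that differed by at least 2-fold and passed in both knockdown comparisons. The windows hold 250 bases before and 20 bases from the start of the RefSeq transcript (GRCh38.p14), and for ITGB1, which has 2 listed starts, the first is shown. RefSeq windows were found for 9 of the 10 genes by symbol. Capitals mark matches on either strand to 4 motifs. The letters GGGCGG stand for the GC box, found in 43.7% of 35116 windows of that length. TGANTCA stands for the AP-1 site, found in 7.12%. CATTCC stands for the TEAD site, found in 12.9%, and TATAAA for the TATA box, found in 11%. ITGB1 lies at chr10:32958211-32958480 on the minus strand, ITGA5 at chr12:54419247-54419516 on the minus strand, ITGA2 at chr5:52989102-52989371 on the plus strand and ITGA1 at chr5:52787666-52787935 on the plus strand.
ITGB1: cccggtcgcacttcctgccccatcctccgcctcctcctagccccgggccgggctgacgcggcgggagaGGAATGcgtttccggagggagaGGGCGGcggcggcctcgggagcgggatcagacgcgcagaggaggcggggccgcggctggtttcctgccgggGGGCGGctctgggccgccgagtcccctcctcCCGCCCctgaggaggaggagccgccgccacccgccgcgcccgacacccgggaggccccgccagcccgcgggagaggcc
ITGA5: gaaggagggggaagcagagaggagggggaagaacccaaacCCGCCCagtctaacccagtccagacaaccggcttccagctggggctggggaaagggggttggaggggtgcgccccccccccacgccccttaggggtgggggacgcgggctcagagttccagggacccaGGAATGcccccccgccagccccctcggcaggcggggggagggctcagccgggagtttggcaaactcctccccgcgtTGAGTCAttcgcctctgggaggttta
ITGA2: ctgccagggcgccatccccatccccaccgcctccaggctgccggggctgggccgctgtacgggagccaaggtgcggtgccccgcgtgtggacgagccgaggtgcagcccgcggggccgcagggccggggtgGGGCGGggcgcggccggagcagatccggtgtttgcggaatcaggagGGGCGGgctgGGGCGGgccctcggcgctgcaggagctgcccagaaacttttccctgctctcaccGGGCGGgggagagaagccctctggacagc
ITGA1: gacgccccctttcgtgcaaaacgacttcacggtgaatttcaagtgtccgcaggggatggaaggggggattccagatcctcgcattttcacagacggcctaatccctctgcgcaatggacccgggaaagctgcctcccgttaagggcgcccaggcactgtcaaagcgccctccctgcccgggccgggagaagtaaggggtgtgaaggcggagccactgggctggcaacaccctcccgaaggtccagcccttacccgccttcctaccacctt
The ITGB1 window held 3 GC boxes and 1 TEAD match, ITGA5 held 1 GC box, 1 TEAD match and 1 AP-1 match that reaches into the transcript, and ITGA2 held 4 GC boxes. The window of the other ITGB1 start (chr10:32935539-32935808, minus strand, not shown) held 0 GC boxes, 0 TEAD matches and 3 TATA matches at a GC content of 40%, and which start the array row measures was not tested. ITGA1 held 0 matches, and its window is letter for letter the one listed for PELO, whose transcript starts at the same base. Their GC content was 78.9% for ITGB1, 68.5% for ITGA5, 75.2% for ITGA2 and 61.9% for ITGA1. A match describes these letters only, and 0 matches says only that the letters are not in this window.

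In KD against SCR, 3 of the 10 chains rose, ITGB1, ITGA5 and ITGA2, and 3 fell, ITGA1, ITGB8 and ITGB5, while ITGAV, ITGB3, ITGA4 and ITGB6 did not pass (limma, Bonferroni-adjusted p under 0.05 over 67528 transcripts). Over all transcripts the same test called 4.08% higher and 4.68% lower, and over genes taken by their brightest row 7.78% higher and 7.6% lower. The median difference of the 10 was 0.12 on the log2 scale against −0.06 over all transcripts. The KD and SCR arrays did not overlap for any of the 10, which was also true of 50.3% of all transcripts. With an unmoderated test on the KD and SCR arrays alone, 0 chains passed higher and 1 lower, ITGB8, after the same adjustment. The methods name a one-way ANOVA and do not say that only 2 groups entered it. Chains that share a partner did not all move in 1 direction. Of the alpha partners of ITGB1 in the group, ITGA2 and ITGA5 rose as ITGB1 did, ITGA1 fell, and ITGA4 and ITGAV did not pass. Of the beta partners of ITGAV 1 rose, 2 fell and 2 did not pass.

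**Figure D1:**
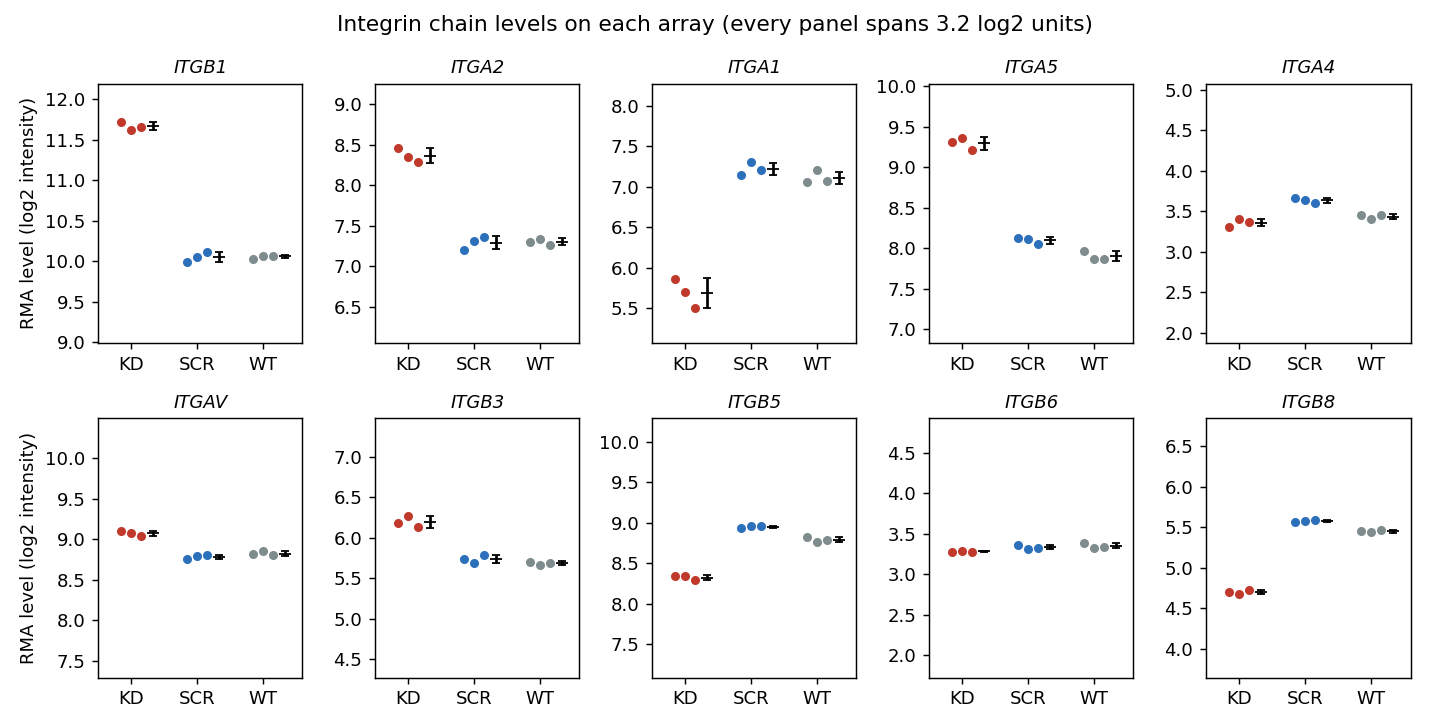
Log2 intensity of the 10 integrin chains on each of the 9 arrays, 1 panel per gene, with points for arrays and bars for the mean and SD of each group. ITGB1, ITGA5 and ITGA2 sit higher on the KD arrays (ITGB1 at 11.67 ± 0.05 against 10.05 ± 0.06 in SCR, SD), and ITGA1, ITGB8 and ITGB5 sit lower.

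ITGB1, the beta chain shared by the collagen and fibronectin receptors, read 11.72, 11.62 and 11.66 on the KD arrays, 9.99, 10.05 and 10.11 on the SCR arrays, and 10.03, 10.07 and 10.07 on the WT arrays. All 3 KD arrays were far above all 6 control arrays, and the controls overlapped. The rise from SCR to KD was 1.62 on the log2 scale (SE 0.05, 95% interval 1.50 to 1.73), or 3.06-fold, with a Bonferroni-adjusted limma p of 4.5e-06. Against WT it was 1.61 with an adjusted limma p of 4.8e-06. ITGB1 had 2 further rows under its symbol. The first had means of 5.95 ± 0.05 on the KD arrays, 5.74 ± 0.10 on the SCR arrays and 5.70 ± 0.08 on the WT arrays (SD), a difference of 0.22 between KD and SCR that did not pass, and the second differed by −0.07 and did not pass either. The first of these rows, which the annotation gave no gene identifier, was also higher on every KD array than on any control array (95% interval 0.07 to 0.36 against SCR, limma, Benjamini-Hochberg-adjusted p = 0.028). Over all transcripts, the KD arrays did not overlap the SCR arrays for 50.3% and the WT arrays for 48.4%. The second differed from WT by −0.13 (95% interval −0.25 to −0.0085) and did not pass. The 2 further rows thus differed in opposite directions, and the Bonferroni call was confined to the brightest row. With the mean of the rows the difference against WT was 0.58 on the log2 scale and did not pass (limma, adjusted p = 0.057).

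ITGA2, the alpha chain of the receptor that prefers fibrillar collagen, read 8.46, 8.35 and 8.28 in KD, 7.20, 7.31 and 7.36 in SCR and 7.30, 7.34 and 7.26 in WT. Every KD array exceeded every control array by more than the spread within any group. The rise was 1.07 against SCR (SE 0.06, 95% interval 0.93 to 1.21, 2.10-fold, limma, adjusted p = 0.0014) and 1.06 against WT (limma, adjusted p = 0.0016).

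ITGA1, the alpha chain of the receptor with a preference for the collagen of basement membranes, read 5.86, 5.70 and 5.50 in KD, 7.15, 7.30 and 7.21 in SCR and 7.06, 7.20 and 7.07 in WT. All 3 KD arrays were the lowest and also the most spread of the 3 groups (SD 0.18 in KD, 0.07 in SCR and 0.08 in WT). From SCR to KD the fall was 1.53 (SE 0.09, 2.89-fold, limma, adjusted p = 0.0015), with a 95% interval from −1.73 to −1.33, and the difference against WT was −1.42 (limma, adjusted p = 0.0029). The KD mean of 5.69 was below 9 of the 23 background sets, so the fold rests on a dim KD level. The row shared by PELO, a ribosome rescue factor, and ITGA1 read 7.78, 7.86 and 7.84 in KD, 8.03, 7.96 and 7.99 in SCR and 8.10, 8.01 and 8.05 in WT. Its differences of −0.16 and −0.22 did not pass, and how far either gene feeds this row cannot be told apart. ITGA1 and ITGA2 lie beside each other on chromosome 5 and moved apart, and MOCS2, a molybdenum cofactor gene beyond ITGA2, was at 6.43 in KD, 6.76 in SCR and 6.90 in WT, a difference of −0.33 from SCR that did not pass.

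**Figure D2:**
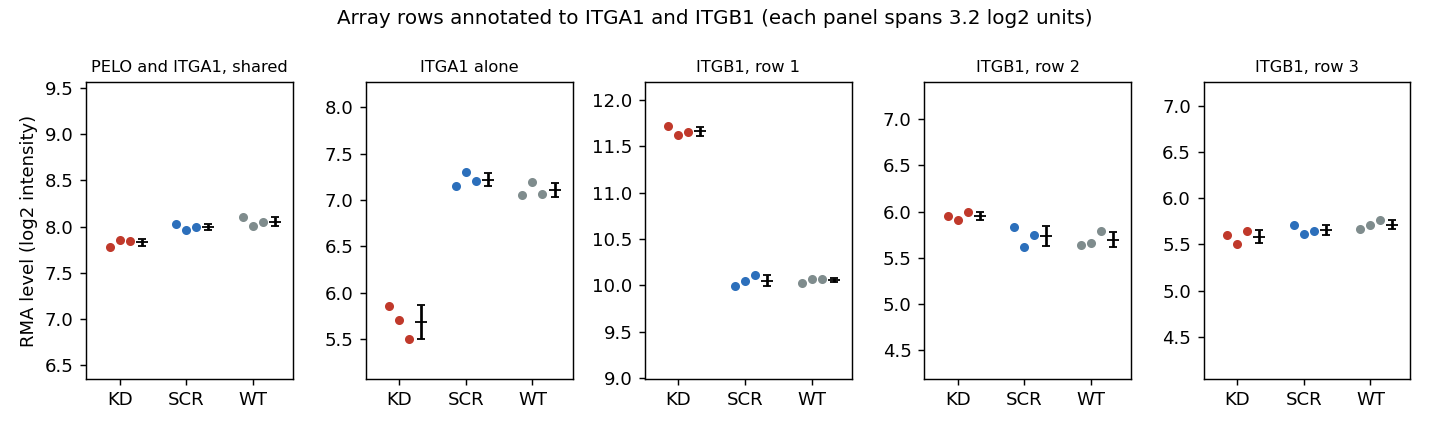
Log2 intensity on each array for every transcript row that names ITGB1 or ITGA1, with points for arrays and bars for group means and SD. The brightest ITGB1 row rises by 1.62 in KD while its other rows differ by 0.22 and −0.07, and the row naming ITGA1 alone falls by 1.53 while the row shared with PELO differs by −0.16.

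Among the alpha chains of RGD receptors, ITGA5, which pairs with ITGB1 to bind fibronectin, read 9.31, 9.36 and 9.21 in KD, 8.13, 8.11 and 8.05 in SCR and 7.97, 7.87 and 7.86 in WT. No 2 groups overlapped, with KD highest and WT lowest. The rise was 1.20 against SCR (SE 0.06, 95% interval 1.07 to 1.33, 2.30-fold, limma, adjusted p = 2.3e-04) and 1.39 against WT (limma, adjusted p = 5.8e-05). ITGAV, the alpha chain common to the vitronectin and TGF-beta-activating receptors, read 9.10, 9.07 and 9.04 in KD, 8.75, 8.79 and 8.80 in SCR and 8.81, 8.85 and 8.80 in WT. Its KD arrays were all above the controls, by 0.29 from SCR (SE 0.04, 95% interval 0.19 to 0.39) and 0.25 from WT. Neither difference passed the Bonferroni threshold, whereas the Benjamini-Hochberg-adjusted limma p was 4.9e-04 and 0.0013. ITGA4, the chain that reads VCAM1 on endothelium in leukocytes, read 3.31, 3.40 and 3.37 in KD, 3.66, 3.64 and 3.60 in SCR and 3.45, 3.40 and 3.46 in WT. These values lie near the array background, since 12 of the 23 background probe sets were brighter than its KD mean, and its difference of −0.27 from SCR (95% interval −0.38 to −0.17) did not pass and its KD and WT arrays overlapped.

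The beta partners of ITGAV other than ITGB1 did not move together. ITGB8, which with ITGAV binds latent TGF-beta, read 4.70, 4.68 and 4.73 in KD, 5.57, 5.58 and 5.59 in SCR and 5.45, 5.44 and 5.47 in WT. It was low in all 3 KD arrays and highest in SCR, and all 3 groups were apart. The fall was 0.88 from SCR (SE 0.04, limma, adjusted p = 2.4e-04), with a 95% interval from −0.97 to −0.78, and the difference from WT was −0.75 (limma, adjusted p = 9.9e-04). Its KD mean was below 10 and its SCR mean below 9 of the 23 background sets, so with both means dim no fold is given. The background sets ranged widely, with array medians of 3.60 to 3.81 and highest values of 11.93 to 12.30. A count of brighter sets is therefore only a rough guide, and how much of a level is background was not tested.

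ITGB5, which with ITGAV binds vitronectin, read 8.34, 8.34 and 8.29 in KD, 8.94, 8.96 and 8.96 in SCR and 8.82, 8.77 and 8.79 in WT. Arrays again ran in the order SCR, WT, KD with no overlap. It fell by 0.63 from SCR (SE 0.04, 1.54-fold, limma, adjusted p = 0.0059), with a 95% interval from −0.72 to −0.53, while its difference of −0.47 from WT did not pass (limma, adjusted p = 0.076). The call against SCR was lost without any 1 KD array or any 1 SCR array (limma, adjusted p = 0.055 to 0.094). ITGB3, the partner in the vitronectin receptor of platelets and osteoclasts, read 6.18, 6.27 and 6.13 in KD, 5.74, 5.69 and 5.78 in SCR and 5.70, 5.66 and 5.69 in WT. Its KD arrays were the highest, by 0.45 from SCR (95% interval 0.34 to 0.57) and 0.51 from WT, and neither passed (limma, adjusted p = 0.53 and 0.21). The Benjamini-Hochberg-adjusted limma p was 6.1e-05 and 2.9e-05. Its SCR mean was below 9 of the 23 background sets. ITGB6, an epithelial chain that with ITGAV activates latent TGF-beta, read 3.27, 3.29 and 3.28 in KD, 3.36, 3.31 and 3.33 in SCR and 3.39, 3.33 and 3.34 in WT. These values were at background, with 12 of 23 background sets brighter, and the difference of −0.06 from SCR (95% interval −0.15 to 0.04) did not pass.

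**Figure D3:**
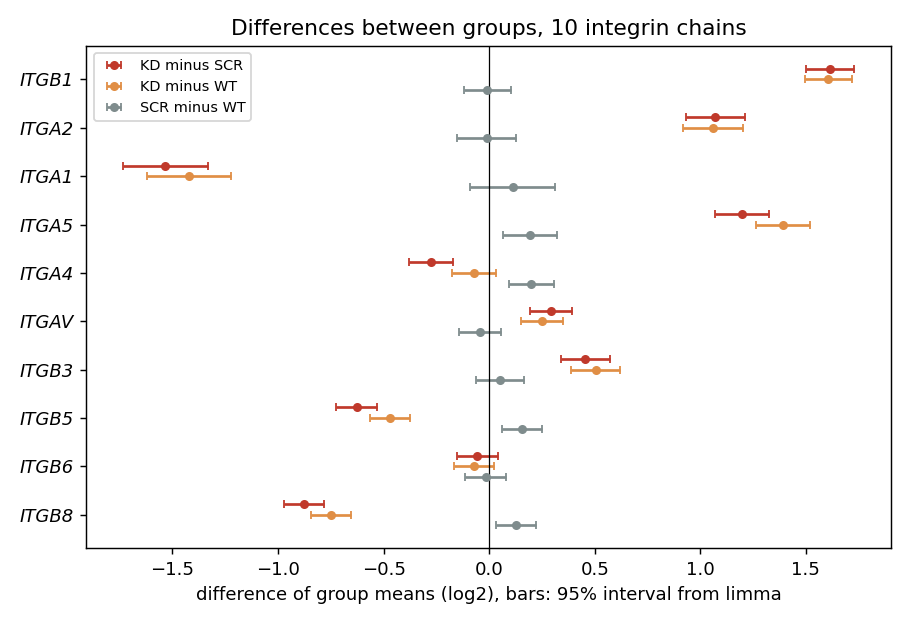
Log2 differences of the 10 chains for KD against SCR, KD against WT and SCR against WT, with points for the differences and bars for the 95% intervals of the limma fit. ITGB1, ITGA5 and ITGA2 lie above 1 in both knockdown comparisons, while the differences between SCR and WT stay between −0.04 and 0.20.

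Against WT, 3 chains rose (ITGB1, ITGA5, ITGA2), 2 fell (ITGA1, ITGB8) and 5 did not pass, at 4.13% of all transcripts called higher and 4.49% lower. KD and WT arrays did not overlap for 9 of the 10, the exception being ITGA4, and for 48.4% of all transcripts. The median difference of the chains was 0.09 against −0.06 over all transcripts. With the unmoderated test on the KD and WT arrays alone, 0 chains passed in either direction after the same adjustment. Since both comparisons use the KD arrays, the second is no independent repeat of the first.

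Between the controls, SCR against WT, 0 of the 10 chains passed, at 0.141% of all transcripts called higher and 0.074% lower. At an unadjusted limma p under 0.05 there were 4 higher and 0 lower, and the unmoderated test called 0 after adjustment. The groups did not overlap for 4 of the 10, against 18.6% of all transcripts. These were ITGA4 (0.20, 95% interval 0.10 to 0.31), ITGA5 (0.19, 0.07 to 0.32), ITGB5 (0.16, 0.06 to 0.25) and ITGB8 (0.13, 0.03 to 0.22), each higher in SCR. For ITGA2 and ITGB1 the intervals of the SCR difference were −0.15 to 0.13 and −0.12 to 0.10. ITGA1 had the widest, −0.09 to 0.31.

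The genes around these receptors were grouped by role in 10 lists, and 139 genes besides the 10 chains were measured, of which 34 rose and 6 fell in KD against SCR, where 7.78% of all genes by brightest row rose and 7.6% fell. These counts depend on the test, being 8 and 1 with the unmoderated test and 55 and 33 with Benjamini-Hochberg adjustment. The role lists too were chosen with earlier results of these data known. Of the 16 other integrin chains 3 rose and 0 fell, while 3 were lower at an unadjusted limma p under 0.05 and 0 by the unmoderated test after adjustment. The risers were ITGA6 (4.05) and ITGA3 (2.74), the alpha chains of laminin receptors that also pair with ITGB1, and ITGB4 (0.73), the hemidesmosome beta chain, whose call was lost without any 1 KD or SCR array or the first WT array (limma, adjusted p = 0.065 to 0.21). The median of the 16 was −0.01. ITGA6 was at 8.75 in KD and 4.69 in SCR, where 10 of 23 background sets were brighter, so the size of its difference rests on a level near background. The other collagen-binding alpha chains, ITGA10 and ITGA11, differed by 0.15 and −0.14 and did not pass.

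On the ligand side, collagen chains were nearly all without a call: of 16 measured, 0 rose and 1 fell, COL4A5, a chain of basement membrane collagen, by 1.20 from 6.58 in SCR to 5.38 in KD. At an unadjusted limma p under 0.05, 5 were higher, and the unmoderated test called 0 higher after adjustment. COL1A1 differed by −0.24 and COL4A1 and COL4A2 each by 0.41, none of which passed. Of 22 RGD and ITGA4 ligands, 10 rose and 1 fell, with a median of 0.12, and no test compared the ligand lists with each other. With Benjamini-Hochberg adjustment the counts were 5 higher and 4 lower of the collagen chains and 10 higher and 4 lower of these ligands. EDIL3, an RGD protein bound by ITGAV receptors, rose by 5.32 from 4.73, a level with 10 of 23 background sets brighter, to 10.05, and CCN1, a matricellular ligand of ITGAV receptors, rose by 3.64 from 6.89 to 10.52. NPNT, nephronectin, a basement membrane RGD ligand, fell by 3.27 from 8.37 to 5.09, with 10 of 23 background sets brighter in KD. TNC, tenascin-C, rose by 1.06 from SCR but was lower in SCR than in WT, by −0.81, a difference between the controls that itself passed (limma, adjusted p = 0.0054). The TNC difference between KD and WT was 0.26 and did not pass, so its knockdown call was against SCR alone. FN1, fibronectin, the ligand of the ITGA5 receptor, was at 5.99 in KD and 5.90 in SCR, a difference of 0.09 that did not pass. Of 7 genes for latent TGF-beta, the cargo of the ITGB6 and ITGB8 receptors, 1 rose, TGFB1 by 1.03, and 0 fell (3 at an unadjusted limma p under 0.05, 0 by the unmoderated test after adjustment).

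Inside the cell, 6 of 19 genes that bind or activate the beta tail rose and 1 fell. TNS3, a tensin of fibrillar adhesions, rose by 2.10. Of the kindlins, FERMT2 rose by 1.26 and FERMT1 by 1.10, while FERMT3 differed by −0.19 and did not pass. PARVA, a parvin of the complex with ILK, fell by 2.30. ILK itself differed by 0.47 and did not pass (limma, adjusted p = 0.16). Of 5 tail-binding inhibitors measured 3 rose and 0 fell, with a median of 0.90: DAB2 by 1.57 and NUMB by 1.03, both endocytic adaptors, and ITGB1BP1, which competes with talin for the ITGB1 tail, by 0.90. The ITGB1BP1 call was lost without any 1 array other than the first KD array (limma, adjusted p = 0.087 to 0.23). The 0 lower stands beside 1 at an unadjusted limma p under 0.05 and 0 by the unmoderated test after adjustment. Of 17 adhesion signalling genes 3 rose, PXN (paxillin, a scaffold of the adhesion) by 1.91, the kinase YES1 by 1.12 and the adaptor CRKL by 1.11, and 1 fell, the kinase PTK2B by 1.68. PTK2, focal adhesion kinase, differed by 0.43 and did not pass (limma, adjusted p = 0.58).

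Of 17 trafficking genes 2 rose and 1 fell. RAB11FIP1, which recycles ITGB1 receptors, rose by 1.22 and the small GTPase ARF6 by 0.90, and RAB4A, of the fast recycling route, fell by 1.24. Among 8 chain processing genes 1 rose, MGAT5, which branches N-glycans on the chains, by 1.12, and 0 fell (3 at an unadjusted limma p under 0.05, 0 by the unmoderated test after adjustment). Of 12 lateral membrane partners 5 rose and 1 fell, with a median of 0.27. CAV1 rose by 3.83, PLAUR, the urokinase receptor, by 2.18, SDC4 by 1.62, SDC1 by 1.01 and the tetraspanin CD151 by 0.59, and SLC3A2, which binds the ITGB1 tail, fell by 0.81. Calls of 3 of these depended on single arrays: CD151 without any array but the second WT array (limma, adjusted p = 0.051 to 0.17), SDC1 without the first KD array, any SCR array or any WT array (0.070 to 0.29), and SLC3A2 without the second KD array, any SCR array or any WT array (0.073 to 0.20).

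**Figure D4:**
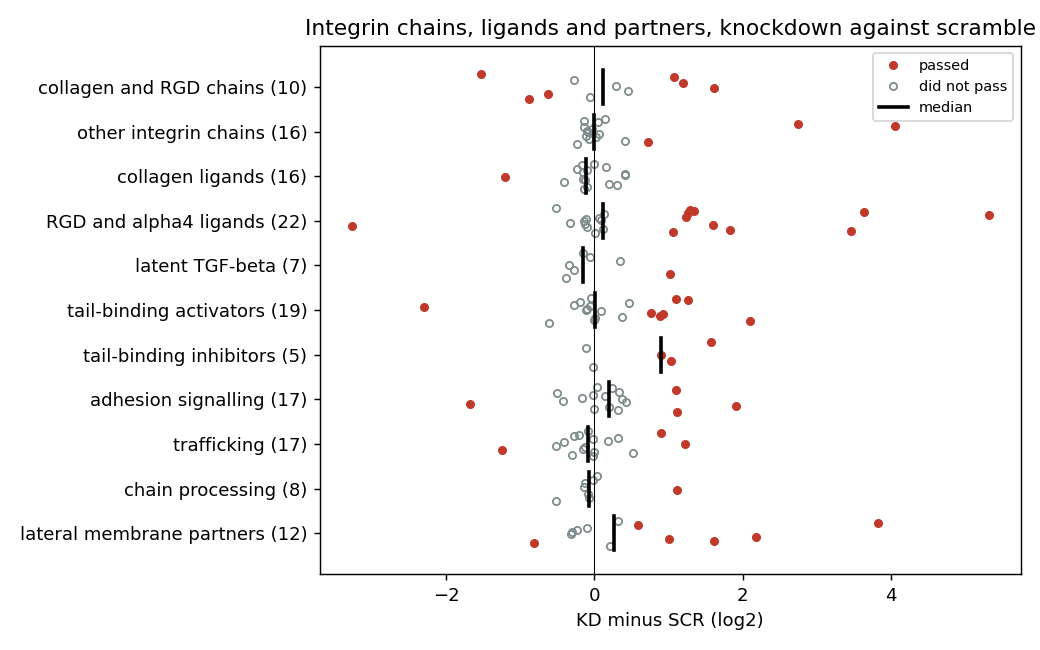
Log2 difference of KD from SCR for each gene of the 10 role lists and the 10 collagen- and RGD-binding chains, with filled points for genes that passed, open points for the others and vertical bars for list medians. The RGD and ITGA4 ligands hold 10 risers among 22 genes, and the collagen ligands hold 0 among 16.

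For each chain that passed in KD against SCR, the 3 genes whose 9 array values, centred on their own mean, lay closest by root mean square difference are named as a description. For ITGA5 they were LGALS1 (0.026), VCL (0.046) and FKBP9 (0.050). For ITGB1 they were HLA-H (0.041), NIN (0.047) and PTPN12 (0.048), and for ITGA2 LMBRD2 (0.036), TIMM9 (0.038) and SIRT1 (0.039). For ITGA1 the distances were larger, LINC00571 (0.063), RPS6KA6 (0.074) and FKBP10 (0.082). For ITGB5 they were RUSF1 (0.028), DENND1B (0.029) and DSP (0.031), and for ITGB8 GLUD1 (0.032), PSD4 (0.034) and CGN (0.034). With 9 arrays in 3 groups, such likeness rests mainly on the 3 group means.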

How the data were processed

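RNA of KD, SCR and WT 22Rv1 cells was measured on 9 arrays, 3 per group. Normalization by the authors used RMA and gave log2 intensity values, the unit of the deposited table, and the submitters' processing notes name Affymetrix Expression Console and Transcriptome Analysis Console 3.0. No source used here gives the annotation build. The labels state an average RNA integrity number that is low, and scan or hybridization batches were not analysed here. RMA quantile normalization, as usually run, forces arrays to a common distribution, and array medians were 5.41 to 5.50 with background set medians of 3.60 to 3.81. The number of arrays limits the precision.

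Of 70523 rows, 67528 transcript clusters were tested and 2995 others, among them 23 background sets, were left out. The array annotation gave 23781 rows 1 symbol, 1543 several and 42204 none. A RefSeq GRCh38.p14 table matched 21497 rows by gene identifier and changed 0 symbols. All 9 arrays entered 1 limma model (version 3.58.1, R 4.3.3) with a mean for each group, and eBayes moderated the variance (6 residual and 3.34 prior degrees of freedom). P-values were adjusted by Bonferroni, with a threshold of 0.05. The fit was tested on simulated data. No value was transformed again.

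The genes, role lists and marker lists were chosen with earlier results of these data known. The text names every chain, in each role list the 2 largest rises and falls that passed, MOCS2, SSX2, the marker genes and the 3 nearest patterns of each chain that passed. FN1, PTK2, ILK, COL1A1, COL4A1, COL4A2, TNC, ITGB4, CRKL, ITGB1BP1, CD151, SDC1, SDC4, FERMT1 and FERMT3 were named after their values were seen. Listed genes whose only row carries several symbols are in no count, and of such shared rows the text gives those of SSX2 and of PELO with ITGA1.

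Alternatives covered the adjustment, a fold minimum of 2, centring, quantile normalization, a filter on dim transcripts, the arrays in the fit and a trended and robust variance. They also covered an unmoderated test on the compared groups alone, a block for the array number, leaving out each array, and the mean of a gene's rows.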

Additional observations from a re-analysis of the deposited data

How the results depend on the processing

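With 3 technical arrays per group, these results are limited by array number and by dim rows. ITGA4 and ITGB6 lay near background. Of the 23 background sets, 10 were brighter than ITGB8 in KD, and 9 than ITGB8 in SCR, ITGB3 in SCR and ITGA1 in KD. Benjamini-Hochberg adjustment gave 5 chains higher and 4 lower in KD against SCR, in place of 3 and 3. Against WT it gave 5 higher and 3 lower, in place of 3 and 2. The chains gained were ITGAV, ITGB3 and ITGA4 against SCR, and ITGAV, ITGB3 and ITGB5 against WT. In the role lists it gave 55 genes higher and 33 lower in place of 34 and 6. The unmoderated test on the compared groups alone gave 0 higher and 1 lower against SCR, 0 and 0 against WT, and 8 and 1 in the role lists. ITGB8 was the 1 kept (ITGB1 adjusted p = 0.24, ITGA1, ITGA2 and ITGA5 1). With at least 2-fold, 1 chain was lower in each of the knockdown comparisons, and the shared row of PELO and ITGA1, an alternative chosen after seeing the data, left 1 lower in KD against WT. ITGB5 lost its call against SCR when only the compared groups were fitted (limma, adjusted p = 0.11), and gained one against WT with dim transcripts removed (0.014) or a trended and robust variance (0.0031). Leaving out each array in turn gave 3 to 3 chains higher and 2 to 3 lower against SCR, 3 to 3 and 2 to 2 against WT, 0 to 0 in either direction between the controls, and 29 to 32 and 5 to 6 in the role lists.

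The labels do not say that an array number marks a shared step. Deviations of same-numbered arrays correlated at −0.02 to 0.16, and in 11 of 18 combinations, not all, an array correlated best with its own number, so a shared effect of the number was neither established nor excluded and the arrays were treated as unpaired. With the array number as a block, 3 chains were higher and 2 lower against SCR, 2 and 2 against WT and 27 and 5 in the role lists. ITGB5 against SCR (limma, adjusted p = 0.13) and ITGA2 against WT (0.052) lost their calls, as did TGFB1 against SCR (0.067).

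Signs turned only for differences near 0 that did not pass: with arrays centred on their medians, which moved the median of all transcripts in KD against SCR from −0.06 to 0.01, ITGA4 against WT (8.3e-04), ITGB1 in SCR against WT (0.0013), ITGB6 against SCR (0.0088) and against WT (0.0015). In SCR against WT, ITGA1 turned with the shared row of PELO and ITGA1, to −0.061. Leaving out each array in turn, the SCR against WT difference ran from −0.044 to 0.033 for ITGA2 (above 0 without the first SCR or the second WT array), from −0.040 to 0.021 for ITGB1 (without the first SCR array) and from −0.031 to 0.0011 for ITGB6 (without the first WT array). The cause was not tested. Among values for single chains, 525 kept direction and side of the threshold, 25 lost and 8 gained a call, and 9 turned.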
